A study of Mus musculus with 2 samples.

Results

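The 10 genes described here carry out or sense the retinoid steps of the testis: Stra6 for uptake, Rdh10, Aldh1a1 and Aldh1a2 for synthesis, Cyp26a1 and Cyp26b1 for breakdown, Crabp1 and Crabp2 for binding, and Rara and Rarg for reception. They were found by their symbols, and all 10 were among the 41459 genes listed in both libraries. Whole testes of mice aged 55 days were profiled by droplet single-cell RNA sequencing, with 1 library from the wild type (Rad21l+/+, here WT) and 1 from the knockout (Rad21l-/-, here KO). RAD21L is a meiosis-specific subunit of cohesin, the ring complex that holds chromosomes together and shapes them in meiotic prophase, and no other allele or treatment is named for either library. How many animals went into a library is not stated, so neither genotype has a replicate and no difference between them was tested.

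Retinoic acid is made from vitamin A (retinol) by oxidation to retinal and then to the acid, and it is removed by the CYP26 enzymes. In the testis it is known to start the differentiation of spermatogonia and their entry into meiosis, and Sertoli cells and germ cells both hold enzymes that can make it. It acts through nuclear receptors (the RARs, paired with RXRs), which bind DNA at direct repeats of a short half-site, while small cytoplasmic proteins carry retinol and retinoic acid inside the cell.

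Levels are given as CPM, the UMIs (molecules counted once each) of a gene per 1000000 UMIs of a cell class, with exact Poisson 95% intervals, which cover counting error only. CPM was not set per transcript length, so each gene is compared between classes and libraries and not with other genes. Classes were built from marker genes and carry the ending "-like". The WT library had 5400 kept barcodes with a median of 2230.5 UMIs, and the KO library had 6381 with a median of 3460; 14 barcodes were shared by both. The libraries differed in make-up. Sertoli-like cells numbered 63 in WT and 1383 in KO, and Leydig-like cells 8 and 718. KO also had 559 stromal-like, 81 myoid-like, 362 myeloid-like and 36 endothelial-like cells, where WT had at most 1 of a kind, while cells past the transition came only from WT, with 511 pachytene and diplotene-like, 1615 round and 1326 elongating spermatid-like ones. Both libraries held spermatogonia-like cells (133 and 923), early prophase-like cells (37 and 266) and cells between early prophase and pachytene (83 and 274, called prophase transition-like). In early prophase-like cells Rad21l itself stood at 150.3 CPM (101 to 215) for WT and at 38.5 CPM (28.0 to 51.7) for KO. Its reads were thus fewer but not absent in the library labelled KO, and the extent of the deleted part is not given in the sources used here.

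**Figure D1:**
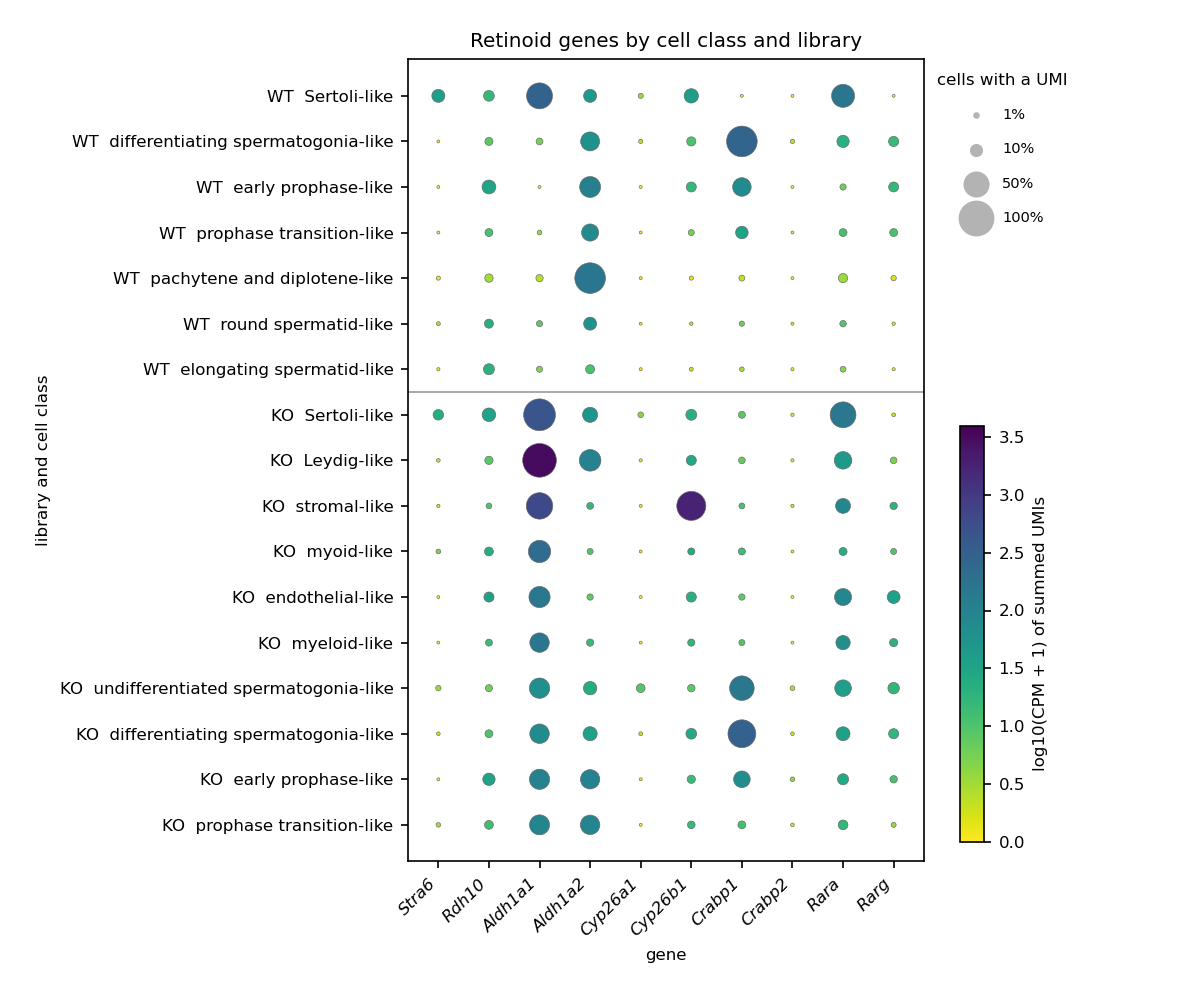
Levels of the 10 genes in each cell class with at least 30 cells, with WT classes above and KO classes under the line; colour gives the level as log10(CPM + 1) and dot area the percent of cells with a UMI. Cyp26b1 is darkest in KO stromal-like cells, Aldh1a1 in KO Leydig-like cells, Crabp1 in differentiating spermatogonia-like cells of both libraries, and Aldh1a2 in WT pachytene and diplotene-like cells.

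The steps differed in the class where their genes were highest. In KO, where somatic classes could be compared, classes of at least 30 cells were ranked. Stra6 and Rara were highest in Sertoli-like cells, Aldh1a1 in Leydig-like cells, Cyp26b1 in stromal-like cells and Crabp1 in differentiating spermatogonia-like cells. Thus 2 of the 9 genes with at least 20 UMIs in KO peaked in Sertoli-like cells, against 14.8% of all 17176 genes counted. In WT, 4 of 8 peaked in a germ class (Aldh1a2, Rdh10, Crabp1 and Rarg), against 82.5% of 19532 genes. Peaks of Rdh10 and Rarg rested on 5 UMIs in KO and on 6 and 3 UMIs in WT, and their order is not resolved by the counts.

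Stra6, the membrane receptor that takes retinol from its carrier protein in blood, was a Sertoli-like gene in both libraries. Its level was 37.1 CPM (20.8 to 61.3, 15 UMIs) in WT Sertoli-like cells and 22.3 CPM (19.4 to 25.6, 208 UMIs) in KO ones. These cells held 86.7% of all Stra6 UMIs in KO. Elsewhere it was close to nil: no other WT class passed 1.67 CPM, and the next KO class, myoid-like cells at 4.34 CPM, had 1 UMI. A Stra6 UMI was seen in 9.11% of KO Sertoli-like cells (median 6478 UMIs) and in 0 of 362 myeloid-like cells (median 2683.5 UMIs), which allows a share of up to 0.829% with a UMI and sets no limit on cells that express the gene. Thinned to 2000 UMIs per cell, the Sertoli-like share was 2.90%.

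Rdh10, which oxidises retinol to retinal, was low and spread over many classes. In KO it stood at 31.0 CPM (27.5 to 34.8) in Sertoli-like cells and 32.4 CPM (22.8 to 44.6) in early prophase-like cells, and the intervals overlap. In KO Leydig-like cells it was 7.72 CPM (5.54 to 10.5), in stromal-like cells 8.85 CPM (4.57 to 15.5) and in differentiating spermatogonia-like cells 9.14 CPM (6.50 to 12.5), all below the Sertoli-like interval. Along WT germ cells the gene dipped and returned. It was 30.1 CPM (11.03 to 65.4, 6 UMIs) in early prophase-like, 2.17 CPM (1.47 to 3.10, 30 UMIs) in pachytene and diplotene-like, 20.9 CPM (17.4 to 24.9, 125 UMIs) in round spermatid-like and 18.9 CPM (16.1 to 21.9, 170 UMIs) in elongating spermatid-like cells. The pachytene interval does not meet those of the spermatid classes, and those of round and elongating cells overlap.

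Aldh1a1, a retinal dehydrogenase that makes retinoic acid, was a Leydig gene. All 718 KO Leydig-like cells had a UMI, and the level was 3123 CPM (3076 to 3171). They held 69.5% of the gene's UMIs in KO. The 8 WT Leydig-like cells, too few for a comparison, stood at 3497 CPM (228 UMIs). The gene was lower but plain in KO stromal-like cells, at 634 CPM (593 to 678), and in KO Sertoli-like cells, at 452 CPM (439 to 466, 88.9% of cells with a UMI). In WT Sertoli-like cells it was 299.6 CPM (249 to 358, 58.7% of cells), and WT round spermatid-like cells, the next class, had 7.35 CPM (5.34 to 9.87). The other KO classes lay between 65.3 CPM in undifferentiated spermatogonia-like cells and 217 CPM in myoid-like cells. Reads of its near-identical neighbour Aldh1a7 (199 CPM in KO Leydig-like cells) could be split between the 2 genes in counting, so the share of each is uncertain.

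Leydig marker UMIs were also found in the other KO classes. As a group, the 10 Leydig marker genes stood in KO spermatogonia-like cells at 1.80% of their Leydig-like level, and Aldh1a1 stood there at 2.30% of its own. The pairs were 2.02% and 3.31% in early prophase-like cells and 3.05% and 4.96% in myeloid-like cells, so Aldh1a1 lay slightly above the markers there. In Sertoli-like cells the markers were at 2.90% as a group (0.745% to 50.6% for single markers) and Aldh1a1 at 14.5%. In stromal-like cells they were at 4.05% (1.73% to 30.9%) and Aldh1a1 at 20.3%. Aldh1a1 lay above the summed markers but inside the range of single markers in each of these 5 classes, and the part of Leydig RNA in its level there was not tested.

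Aldh1a2, the retinal dehydrogenase known from meiotic germ cells, was, like Rdh10, highest in a germ class in WT. It reached 151 CPM (145 to 158, 2086 UMIs) in pachytene and diplotene-like cells, which held 75.3% of its WT UMIs. The share of these cells with a UMI was 82.2% at a median of 26697 UMIs per cell and 25.3% when thinned to 2000 UMIs. Early prophase-like cells had 110 CPM (69.1 to 167) and prophase transition-like cells 75.8 CPM (51.2 to 108). Differentiating spermatogonia-like cells, at 57.3 CPM (42.4 to 75.7), and round spermatid-like cells, at 59.0 CPM (53.0 to 65.5), did not differ beyond their intervals, and elongating spermatid-like cells were lowest at 9.77 CPM (7.83 to 12.03). KO had no pachytene class, and its highest levels were 101 CPM (83.1 to 121) in early prophase-like, 98.5 CPM (90.2 to 107) in Leydig-like and 91.6 CPM (76.6 to 109) in prophase transition-like cells, which overlap. KO spermatogonia-like levels were lower, at 34.2 CPM in differentiating and 23.1 CPM in undifferentiated cells. Pachytene markers stood in WT spermatogonia-like cells at 13.3% of their pachytene level (6.62% to 434% for single markers), and Aldh1a2 at 37.8% of its own.

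**Figure D2:**
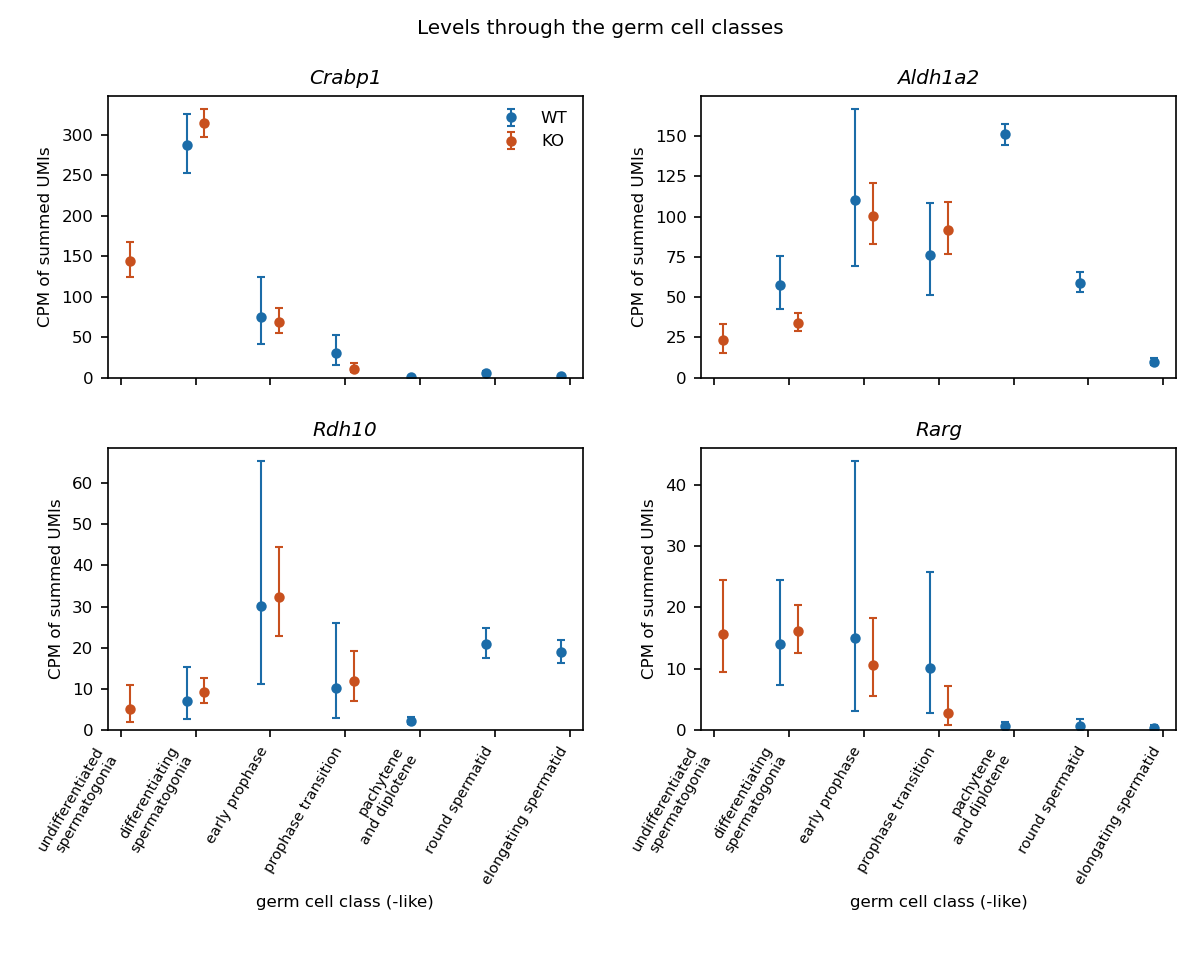
Levels in CPM (linear axis, bars show exact Poisson 95% intervals) of Crabp1, Aldh1a2, Rdh10 and Rarg along the germ cell classes of each library (WT blue, KO orange), in the order of spermatogenesis. Crabp1 is highest in differentiating spermatogonia-like cells of both libraries and lower at each later class up to pachytene, whereas Aldh1a2 is highest in WT pachytene and diplotene-like cells.

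The breakdown enzymes differed in how sharply they were placed. Cyp26b1, which hydroxylates retinoic acid, stood at 1811 CPM (1740 to 1884, 2455 UMIs) in KO stromal-like cells. The next class, Leydig-like cells, had 26.4 CPM (22.2 to 31.1), and the ratio was 68.7 with a lower bound of 57.9. Stromal-like cells held 69.6% of the gene's KO UMIs although they were 8.76% of the kept barcodes. A UMI was seen in 74.1% of them (72.2% when thinned) and in 3.87% of myeloid-like cells of similar depth (medians 2258 and 2683.5 UMIs). The 81 gated myoid-like cells, at 26.0 CPM (9.55 to 56.6, 6 UMIs), lay far below the stromal-like level. The KO cluster of 128 barcodes that held all 81 had 296 CPM (239 to 362, 93 UMIs). The low myoid-like value thus holds for the gated cells only.

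Cyp26b1 varied within the stromal-like class. The median cell had 3 UMIs, the quartiles were 0 and 7, the highest cell had 32, and 145 of 559 cells had none. The 414 cells with a UMI and the 145 without were of like depth (medians 2253 and 2267 UMIs) and alike in summed stromal markers, at 9296 CPM (9109 to 9487) and 9235 CPM (8920 to 9559). Aldh1a1 was 689 CPM (639 to 743) in the cells with Cyp26b1 and 477 CPM (407 to 555) in those without, and these intervals do not overlap. Pdgfra, a receptor tyrosine kinase and 1 of the 8 stromal marker genes, was 1561 CPM (1484 to 1640) and 1187 CPM (1076 to 1307). The summed markers, which include Pdgfra, did not differ beyond their intervals, so its difference is not one of the stromal markers as a set. Rara, at 92.5 CPM (74.7 to 113) and 77.1 CPM (50.8 to 112), overlapped.

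No WT barcode was placed in the stromal-like class. Among the WT classes of at least 30 cells, Cyp26b1 was highest in Sertoli-like cells, at 39.6 CPM (22.7 to 64.3, 16 UMIs), which the counts do not separate from early prophase-like cells (15.03 CPM, 3 UMIs, ratio 2.64, 0.755 to 14.1). A WT cluster of 25 mixed cells had 125 CPM (66.6 to 214, 13 UMIs). Its UMIs were 1.39% Leydig, 0.536% myeloid, 0.273% myoid and 0.151% stromal markers. The 8 WT Leydig-like cells, all in this cluster, had 0 Cyp26b1 UMIs. The KO Sertoli-like level was 19.4 CPM (16.7 to 22.5). The WT barcode with the most Cyp26b1 (7 UMIs) also had 36 UMIs of stromal markers. In KO Sertoli-like cells, the stromal markers were at 0.831% of their stromal-like level and Cyp26b1 at 1.07% of its own, and in Leydig-like cells at 8.16% and 1.46%.

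Cyp26a1, the other retinoic acid hydroxylase and a known direct target of the receptors, was scarce. It had 9 UMIs in WT and 55 in KO. Within KO, 32 of these were in Sertoli-like cells (3.43 CPM, 2.35 to 4.85) and 10 in undifferentiated spermatogonia-like cells (8.26 CPM, 3.96 to 15.2). These intervals overlap, but the ratio of undifferentiated spermatogonia-like over Sertoli-like cells was 2.41 (1.06 to 5.02), which lies above 1. Differentiating spermatogonia-like cells had 4 UMIs (0.937 CPM, 0.255 to 2.40), below the interval of the undifferentiated ones, and the stromal-like, myoid-like, endothelial-like, myeloid-like, early prophase-like and prophase transition-like classes had 0. For stromal-like cells 0 UMIs allow up to 2.21 CPM. The 2 breakdown enzymes thus had their highest levels in different KO classes.

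The sequence before the Cyp26a1 start is shown because it holds a direct repeat of receptor half-sites, and 1 of the Rara starts because it holds the most half-sites of any promoter of these genes. Promoters were taken from RefSeq (table build GRCm38.p6, older than the GRCm39 of the counts), 250 bases before to 50 after each start. The table matched 8 of the 10 genes with 16 promoters, and Rdh10 and Crabp2 were not matched. The half-site AGGTCA was searched together with its variant AGTTCA, the variant GGGTCA and the variant GGTTCA, on both strands, with direct repeats spaced 1, 2 or 5 bases apart. The 250 bases before each start are printed 5′ to 3′ on the plus strand, with half-sites in capitals.
Cyp26a1, chr19:37697558-37697807: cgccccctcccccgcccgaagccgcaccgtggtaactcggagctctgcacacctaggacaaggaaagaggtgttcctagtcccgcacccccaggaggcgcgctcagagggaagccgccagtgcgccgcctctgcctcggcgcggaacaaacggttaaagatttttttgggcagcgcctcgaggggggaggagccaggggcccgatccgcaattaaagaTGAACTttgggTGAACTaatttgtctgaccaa
Rara, chr11:98939461-98939710: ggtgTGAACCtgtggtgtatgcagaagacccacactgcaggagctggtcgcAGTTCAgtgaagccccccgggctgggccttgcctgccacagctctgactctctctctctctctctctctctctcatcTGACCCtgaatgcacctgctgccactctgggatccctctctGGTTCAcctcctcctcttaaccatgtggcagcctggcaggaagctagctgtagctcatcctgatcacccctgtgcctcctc
The Cyp26a1 sequence held 1 direct repeat with 5 bases between its half-sites, read on the minus strand, which began 32 bases before the start. Such a repeat was found in 0.0974% of 32851 promoters of the same length, and in no other of the 16. The Rara sequence held 4 half-sites and no direct repeat. A half-site of any kind was in 6 of the 16 promoters, from 5 genes, and in 43.7% of all promoters. These are matches of letters, and a window without one says only that the letters are not there.

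Crabp1, a cytoplasmic protein that binds retinoic acid, marked spermatogonia in both libraries. In differentiating spermatogonia-like cells it was 287.6 CPM (253 to 326, 246 UMIs) in WT and 314 CPM (298 to 332, 1342 UMIs) in KO. KO undifferentiated spermatogonia-like cells had less, at 145 CPM (124 to 168). Early prophase-like cells had 75.2 CPM (42.1 to 124) in WT and 69.1 CPM (54.7 to 86.1) in KO. In WT it then stood at 30.3 CPM in prophase transition-like cells and at 1.16 CPM (0.662 to 1.88) in pachytene and diplotene-like cells. The share of differentiating spermatogonia-like cells with a UMI was 82.4% in WT and 67.9% in KO, or 47.5% and 43.4% when thinned, against 3.62% of KO Sertoli-like cells (1.29% when thinned). KO somatic classes lay between 6.21 and 13.01 CPM, and none of the 63 WT Sertoli-like cells had a UMI, which allows up to 4.76% of cells with a UMI and sets no limit on cells that express the gene. Crabp2, the paralogue that passes retinoic acid to its receptor, had 5 UMIs in WT and 15 in KO and could not be placed in a class.

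Among classes of at least 30 cells, Rara, the alpha receptor, was highest in Sertoli-like cells of both libraries. It stood at 158 CPM (122 to 202, 64 UMIs) in WT and 150 CPM (142 to 158, 1394 UMIs) in KO. These values did not differ beyond their intervals. The 17 KO lymphocyte-like cells, too few for a comparison, were at 178% of the KO Sertoli-like level. In WT the next class of at least 30 cells, differentiating spermatogonia-like cells, had 19.9 CPM (11.6 to 31.8). KO somatic classes were closer to the Sertoli-like level, with 88.5 CPM (73.4 to 106) in stromal-like, 83.0 CPM (42.9 to 145, 12 UMIs) in endothelial-like, 64.1 CPM (49.7 to 81.4) in myeloid-like and 43.9 CPM (38.4 to 49.9) in Leydig-like cells. KO germ cells were lower, from 38.0 CPM (27.8 to 50.7) in undifferentiated spermatogonia-like to 16.1 CPM (10.2 to 24.1) in prophase transition-like cells. Sertoli markers stood in KO stromal-like cells at 16.8% of their Sertoli-like level (10.7% to 26.8% for single markers) and Rara at 59.2% of its own, and in KO spermatogonia-like cells at 7.47% (4.57% to 9.14%) and 23.4%.

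Rarg, the gamma receptor, had the opposite placing in the tubule. It was 14.03 CPM (7.25 to 24.5, 12 UMIs) in WT and 16.2 CPM (12.6 to 20.5, 69 UMIs) in KO differentiating spermatogonia-like cells. In Sertoli-like cells it was nearly absent, with 0 UMIs in WT, which allows up to 7.43 CPM, and 7 UMIs in KO (0.751 CPM, 0.302 to 1.55). KO undifferentiated spermatogonia-like cells had 15.7 CPM (9.45 to 24.5), stromal-like cells 17.7 CPM (11.3 to 26.3) and myeloid-like cells 18.2 CPM (10.9 to 28.4), and these did not differ beyond their intervals. KO prophase transition-like cells were lower, at 2.80 CPM (0.762 to 7.16, 4 UMIs). Early prophase-like cells had 15.03 CPM (3 UMIs) in WT and 10.5 CPM (12 UMIs) in KO, which the counts do not separate from spermatogonia-like cells.

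The genotypes were set side by side in the classes present in both, as KO over WT with exact conditional binomial 95% intervals of the UMI ratio. A gene was counted as apart at 2-fold or more, among those whose UMIs in the 2 libraries summed to at least 20. In spermatogonia-like cells, Crabp1 and Rarg were close to level, with ratios of 1.04 (0.906 to 1.19) and 1.01 (0.582 to 1.89). Aldh1a2 was lower in KO, with 57.1 CPM against 31.8 CPM in WT and KO, a ratio of 0.557 (0.408 to 0.770), and the ratio was 0.597 (0.429 to 0.843) in differentiating cells alone. Rara had a ratio of 1.51 (0.967 to 2.46), which includes 1, and of 1.72 (1.04 to 3.03) in differentiating cells alone, which does not. Sertoli markers made up 0.0171% of UMIs in WT and 0.112% in KO spermatogonia-like cells, and their part in the Rara ratios was not tested. Rdh10 had a ratio of 1.30 (0.551 to 3.72). Aldh1a1 (4.23 and 71.9 CPM, ratio 17.0, 6.59 to 62.8) and Cyp26b1 (8.45 and 21.9 CPM, ratio 2.59, 1.27 to 6.14) were the 2 of 7 genes at least 2-fold apart, against 16.9% of 13301 genes. The median log2 ratio was 0.37 over these 7 genes and 0.11 over all genes.

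Markers of other cells also differed between the libraries in these cells, and their part in the Aldh1a1 and Cyp26b1 differences was not tested. Leydig markers made up 0.00856% of UMIs in WT and 0.0401% in KO spermatogonia-like cells, and stromal markers 0.00106% and 0.00586%. When 10% of each library's own profile was taken off as free RNA, Aldh1a1 was left at or under the floor of 3 UMIs in both libraries, so that its difference ended, and the log2 ratio of Cyp26b1 went from 1.37 to 0.14. That profile was the sum of the kept barcodes, so a gene under 10% of its library level falls to 0 by design. In KO, Aldh1a1 was such a gene (71.9 CPM in these cells, 868 CPM over the library), so this setting cannot show where its UMIs came from. A single KO cell with 13 stromal marker UMIs held 19 of the 120 Cyp26b1 UMIs, and without it the log2 ratio was 1.13. The lower Aldh1a2 level kept its direction (-0.85, and -0.90 with 10% taken off). Pachytene markers were 0.145% of UMIs in WT and 0.0232% in KO spermatogonia-like cells, and their part in the Aldh1a2 difference was not tested.

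In early prophase-like cells, Aldh1a2 (ratio 0.913, 0.575 to 1.51), Crabp1 (0.920, 0.525 to 1.72) and Rdh10 (1.08) differed by less than counting error. Aldh1a1 had 0 UMIs in the 37 WT cells and 118 in the 266 KO cells, at least 6.87-fold higher in KO against a floor of 3 UMIs, and was the 1 of 5 genes apart, against 14.6% of 8168 genes. With 10% of the library profile taken off it was no longer 2-fold apart (log2 ratio 0.28 against 2.78), and with 20% both libraries were at or under the floor. Rara had 1 and 29 UMIs (ratio 5.06, 0.840 to 207), and 1 UMI in WT is at or under the floor. The median log2 ratio of these 5 genes was 0.11, and that of all genes 0.15. Stra8, a gene known to be switched on by retinoic acid before meiosis, was highest in this class in both libraries, with 1308 CPM (WT) and 1545 CPM (KO).

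In prophase transition-like cells, the classes were not matched in stage: pachytene markers were 0.327% of UMIs in WT and 0.145% in KO. Crabp1 was lower in KO (30.3 and 11.2 CPM, ratio 0.369, 0.164 to 0.854) and Aldh1a2 was level (75.8 and 91.6 CPM, ratio 1.21, 0.808 to 1.86). Aldh1a1 had 1 UMI in WT and 130 in KO, and 2 of 6 genes were at least 2-fold apart, against 25.9% of 9258 genes.

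**Figure D3:**
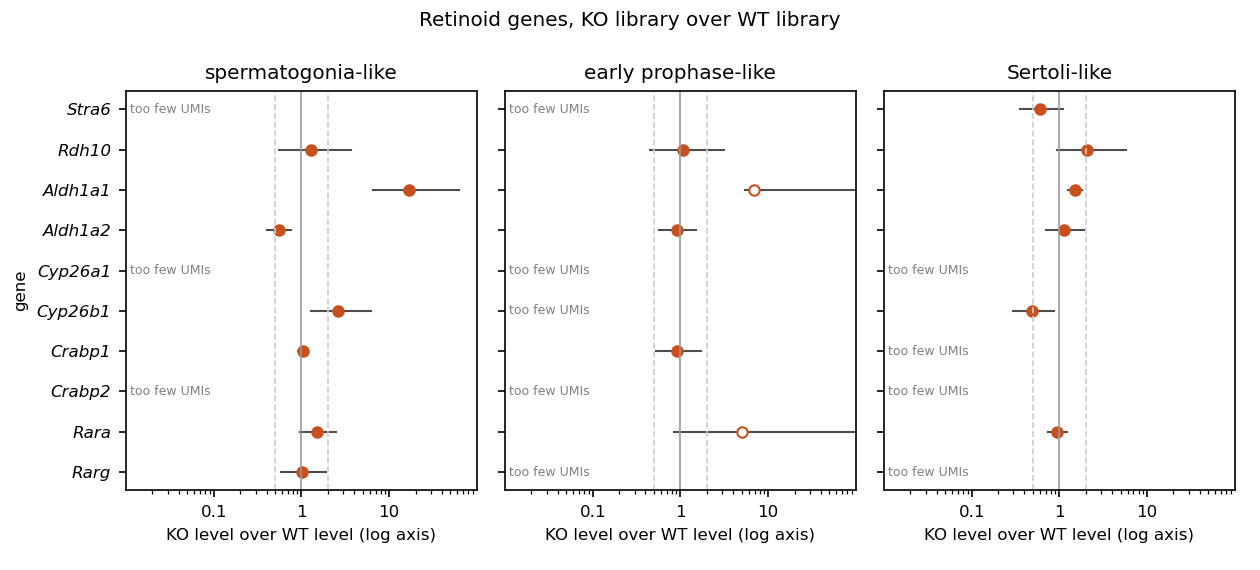
KO over WT level of each gene on a log scale in spermatogonia-like, early prophase-like and Sertoli-like cells, with exact conditional binomial 95% intervals cut at the edge of the axis; dashed lines mark 2-fold lower and higher, and open points mark genes with 3 UMIs or fewer in a library (Aldh1a1 in early prophase-like cells is at its lower bound of 6.87). Rara and Aldh1a2 in Sertoli-like cells and Crabp1 in spermatogonia-like cells lie near 1, and Aldh1a1 lies to the right in both germ classes.

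In Sertoli-like cells, 63 in WT and 1383 in KO at similar depth (medians 6839 and 6478 UMIs), the genes ranged from level to about the 2-fold limit. Rara had a ratio of 0.944 (0.734 to 1.23) and Aldh1a2 of 1.12 (0.702 to 1.91). Aldh1a1 was higher in KO, with a ratio of 1.51 (1.26 to 1.82), and Stra6 stood lower, at 0.601 (0.356 to 1.09), with an interval that includes 1. Rdh10 (14.9 and 31.0 CPM, ratio 2.09, 0.947 to 5.73) and Cyp26b1 (39.6 and 19.4 CPM, ratio 0.490, 0.294 to 0.876) were the 2 of 6 genes at least 2-fold apart, against 23.4% of 11164 genes. The median log2 ratio was 0.04 over the 6 genes and 0.11 over all.

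These Sertoli-like values rest on few WT cells, and 7 of the alternatives left 1 of the 2 genes apart: classes from clusters, a stricter gate, at most 10% mitochondrial UMIs, the top 5% of Scrublet scores left out, the mean of single cells, the median gene set to no difference and a minimum of 1000 UMIs. WT Sertoli-like cells carried 1.51% of UMIs in markers of elongating spermatids, which were nearly absent in the KO library, and the part of these UMIs in the differences was not tested. Averaging the CPM of single cells in place of summing UMIs turned Cyp26b1 from -1.03 to 0.05 on the log2 scale. With 20% of the library profile taken off, the log2 ratio of Aldh1a1 went from 0.59 to -0.09. Cyp26b1 in KO (19.4 CPM in these cells, 128 CPM over the library) fell to the floor by design in that setting. It stayed lower in KO there, but the size of that ratio comes from the floor. Sub-clusters 3, 6 and 7 of the KO cells, described further on, have genes of other classes among their leading genes. Without them (1118 of 1383 cells left), the ratios of Rdh10 and Cyp26b1 were 2.16 and 0.441.

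Over all kept barcodes, where fewer cells of a type and less RNA per cell cannot be told apart, 8 of 10 genes were at least 2-fold apart, against 77.4% of 22977 genes. All 8 were higher in KO, against 43.3% of all genes, and 0 were lower, against 34.1%. Cyp26b1 (ratio 60.6), Aldh1a1 (51.4) and Rara (10.6) were the furthest towards KO, and Aldh1a2 (0.667) was the one gene higher in WT. Stra6 (6.56), Crabp1 (5.80), Rarg (5.72), Cyp26a1 (7.35) and Crabp2 (3.61, with 5 and 15 UMIs) were also higher in KO, and Rdh10 had a ratio of 1.64. Most Leydig-like and Sertoli-like cells and all stromal-like cells were in KO, and the part of this make-up in the ratios was not tested.

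Within the 1383 KO Sertoli-like cells, a finer clustering gave 7 sub-clusters, described here without a test since the members of a cluster are chosen on its genes. Sub-cluster 1 (506 cells, led by Tceal6 and Amotl1) had the least Stra6, at 3.29 CPM, and little Rdh10 (11.97 CPM) and Aldh1a2 (19.5 CPM). Sub-cluster 4 (181 cells, led by Dmkn and Rgs10) had the most Stra6, at 59.4 CPM, with Aldh1a2 at 107 CPM. Sub-cluster 5 (69 cells, led by Hrk and Wfdc18) had the most Rdh10 and Aldh1a2, at 111 and 167 CPM, and the least Rara, at 69.0 CPM, and Cyp26b1, at 1.68 CPM. Sub-cluster 2 (362 cells, led by L1td1 and Gpr179) lay between, with Stra6 at 23.3 CPM and Rdh10 at 38.6 CPM.

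Rara spanned a narrower range over the sub-clusters than Stra6 or Aldh1a2. It was 169 and 170 CPM in sub-clusters 1 and 2 and 138 CPM in sub-cluster 4. Aldh1a1 lay between 304 and 623 CPM in all 7. Cyp26b1 was highest, at 134 CPM, in sub-cluster 6 (42 cells), whose leading genes include the stromal gene Dcn and the Leydig genes Cyp11a1 and Cyp17a1. Sub-cluster 3 (182 cells, median 1841.5 UMIs) was led by Cyp17a1, and sub-cluster 7 (41 cells) by genes of dividing germ cells. Sub-cluster 3 nonetheless had the highest share of Sertoli markers of the 7, at 1.98% of UMIs, with Leydig markers at 0.109%. One KO cell with 25285 UMIs held 12 of the 208 Stra6 UMIs and 11 of the 466 Aldh1a2 UMIs.

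**Figure D4:**
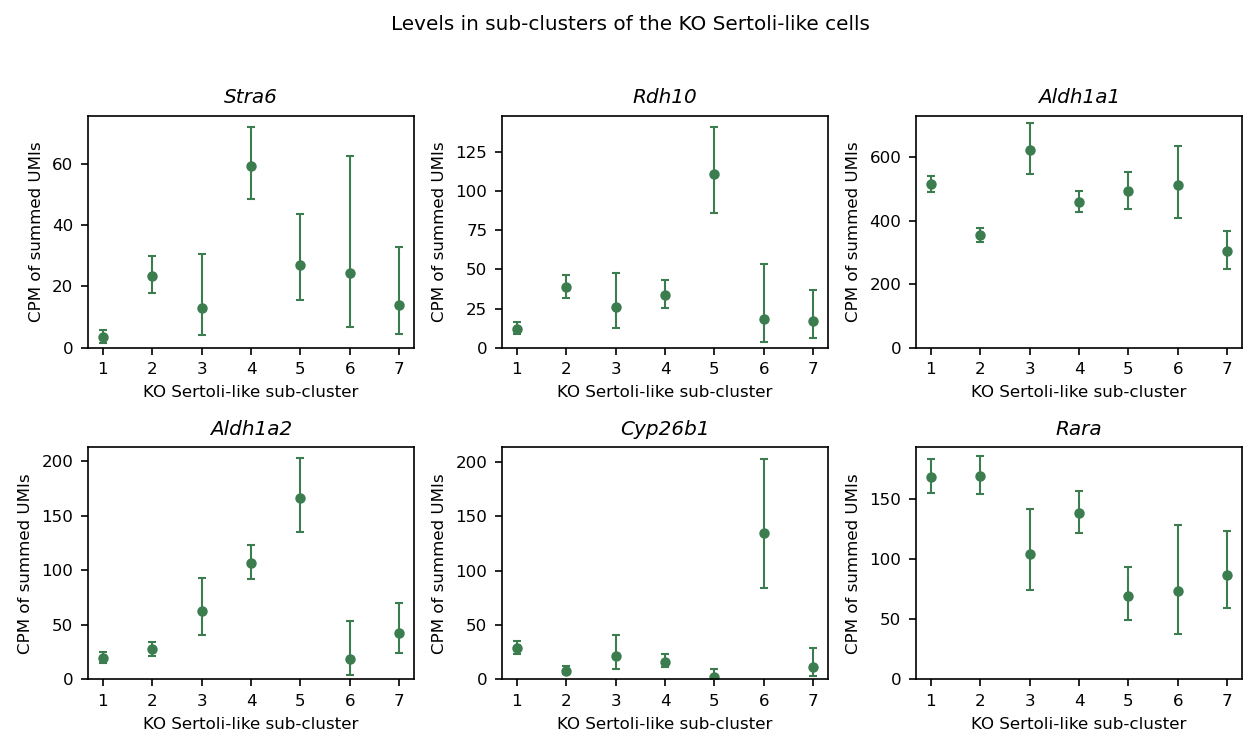
Levels in CPM of Stra6, Rdh10, Aldh1a1, Aldh1a2, Cyp26b1 and Rara in the 7 sub-clusters of KO Sertoli-like cells, with exact Poisson 95% intervals. Stra6 is lowest in sub-cluster 1 and highest in sub-cluster 4, Rdh10 and Aldh1a2 are highest in sub-cluster 5, and Cyp26b1 is highest in sub-cluster 6.

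The other genes of the pathway were read from 4 lists. The list for oxidation or reduction of retinol and retinal held a CYP26 gene and was not limited to enzymes that act mainly on retinoids. Of its 24 genes, 17 had at least 20 UMIs in KO, and 9 of these were highest in Leydig-like cells, against 6.58% of all genes counted. Among them were Adh1, an alcohol dehydrogenase, at 229 CPM and Aldh1a7 at 199 CPM. Aldh1a3, the third retinal dehydrogenase, was highest in stromal-like cells at 103 CPM, beside Cyp26b1, and its level there was 104 CPM (85.4 to 126) in cells with a Cyp26b1 UMI and 99.9 CPM (69.6 to 139) in those without. Rdh11, a retinal reductase, was highest in WT pachytene and diplotene-like cells at 318 CPM. Of these genes, 9 were counted in spermatogonia-like cells, 2 at least 2-fold higher and 1 lower in KO, against 6.68% and 10.2% of all genes. In Sertoli-like cells 12 were counted, 0 higher and 2 lower, against 8.61% and 14.8%.

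Of the 13 uptake, storage and transport genes, 8 had enough UMIs in KO. Of these, 3 were highest in Sertoli-like cells (14.8% of all genes), 2 in germ classes (46.2%) and 3 in other somatic classes. Over all genes in KO, 5.83% were highest in stromal-like, 8.47% in myoid-like, 10.3% in endothelial-like and 7.86% in myeloid-like cells. Fabp5, a fatty acid binding protein that can carry retinoic acid, stood in Sertoli-like cells at 176 CPM (WT) and 393 CPM (KO). Scarb1, a lipoprotein receptor, was highest in Sertoli-like cells in WT (161 CPM) and in endothelial-like cells in KO (644 CPM). Of the 14 receptor partners and cofactors, 12 were counted in each library, and 4 in WT (17.5% of all genes) and 1 in KO (14.8%) were highest in Sertoli-like cells. Ncoa2, a receptor coactivator, stood in Sertoli-like cells at 475 CPM (WT) and 421 CPM (KO). None of the 11 cofactor genes counted in spermatogonia-like cells was 2-fold apart, against 16.9% of all genes, and their median log2 ratio was 0.20 against 0.11.

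Of the 16 response genes, 12 were counted in KO, with 4 highest in germ classes (46.2% of all genes), 1 in Sertoli-like (14.8%), 1 in Leydig-like (6.58%) and 6 in other somatic classes (shares of all genes as given for the uptake list). In spermatogonia-like cells 2 of 10 were at least 2-fold higher in KO (6.68% of all genes) and 0 lower (10.2%), with a median log2 ratio of 0.67 against 0.11 over all genes. Leydig and stromal markers were also higher in those KO cells, as given above, and their part was not tested. In early prophase-like cells 0 of 5 were apart, against 14.6% of all genes. Sall4, a transcription factor of spermatogonia, was 58.4 CPM (43.4 to 77.1) in WT and 66.8 CPM (59.2 to 74.98) in KO differentiating spermatogonia-like cells, and 229 CPM in the undifferentiated ones of KO. Tgm2, a transglutaminase, was highest in KO endothelial-like cells (422 CPM), Rarres1 in KO Sertoli-like cells (67.5 CPM), and Rec8, a meiotic cohesin subunit, in KO early prophase-like cells (70.0 CPM).

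The genes of most similar pattern were ranked by Pearson correlation of log2(CPM + 10) over the 17 classes of both libraries with at least 30 cells, among 13601 genes with at least 100 UMIs. The classes of a library share its free RNA and depth, so these are descriptions. Aldh1a1 was nearest to Gstm1 (r = 0.992), Gstm2 (0.987) and Aldh2 (0.984). Cyp26b1 was nearest to Ccn4 (0.921), Avpr1a (0.918) and S100b (0.916), and Crabp1 to Acaa1b (0.980), Jph1 (0.973) and Galnt6 (0.971). Stra6 was nearest to Defb45 (0.972), L1td1 (0.968) and Wfdc6a (0.968), and Rara to Tbc1d8 (0.969), F11r (0.960) and Zfp983 (0.958). Rarg was nearest to Plod1 (0.939), Tspan14 (0.916) and Nid2 (0.905). The nearest genes were less alike for Aldh1a2 (Ndufc1 at 0.884, Btf3l4 at 0.865 and Derl2 at 0.861) and for Rdh10 (Rnf185 at 0.767, Efnb2 and Pcyt1a at 0.740 or just above).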

How the data were processed

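Raw UMI counts per gene and barcode were deposited for both libraries. Per the file headers, the authors made these counts with Cell Ranger 6.1.2. The genome build GRCm39 and Seurat 4.3 are listed too, per the submitters' processing notes. The rule by which barcodes became cells is not given in the sources used here. The genes and lists were chosen with earlier results of these data known.

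Barcodes with at least 500 genes and at most 20% mitochondrial UMIs (24 mitochondrial RNA genes) were kept, and a class needed 1500 UMIs per cell. The libraries summed to 33096309 (WT) and 28001992 (KO) UMIs. Cells were placed in classes by the share of UMIs from 145 marker genes, pooled over each cell and its 15 nearest neighbours (30 components of 2000 variable genes, the 10 retinoid genes left out). Cells passing 2 lineages were left unassigned. Names rest on these markers, so they may differ from the study's. Scrublet marked 1 WT cell (0.0185%, below the 0.5% of a working call) and 126 KO cells (1.97%); none was removed, but an alternative left out the top 5% of scores.

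UMIs were summed per class. Shares have exact Clopper-Pearson intervals, and were thinned to 2000 UMIs per cell where stated. Beside a count of 0, the limit is that of 3 counts. Classes with at least 30 cells and genes with at least 20 UMIs were compared, with counts under 3 set to 3. No test was possible with 1 library per genotype. Besides the 10 genes, list members were eligible for naming where their highest class had at least 50 CPM and at least 2 times the next, up to 6 per list, with Stra8 always named. Pdgfra and the genes leading sub-clusters were named after their values were seen. The 3 genes most like each member were named. The steps were tested on simulated data. Tools were Python 3.11.15, numpy 2.4.6, scipy 1.17.1, pandas 2.3.3, scanpy 1.11.5, scikit-learn 1.9.0 and matplotlib 3.10.9.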

Additional observations from a re-analysis of the deposited data

How the results depend on the processing

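Some counts depended on the processing. The 2 genes at least 2-fold apart in spermatogonia-like cells became 1 with classes taken from clusters and with the top 5% of Scrublet scores left out. With 10% of the library profile taken off as free RNA, the 1 gene counted was Aldh1a1 with both libraries at the floor. Neither gene was then 2-fold higher in KO. In early prophase-like cells the 1 gene became 0 with 10% and with 20% taken off. The 2 genes in Sertoli-like cells became 1 with classes from clusters, a stricter marker gate, at most 10% mitochondrial UMIs, the top 5% of Scrublet scores left out, the mean of the CPM of single cells, the median gene set to no difference, and a minimum of 1000 UMIs per cell. The log2 ratio of Cyp26b1 in Sertoli-like cells was 0.048 with the mean of single cells. That of Aldh1a1 in spermatogonia-like cells was -2.53 with 10% and with 20% taken off, and that in early prophase-like cells -2.52 with 20%. In these cases both libraries were at the floor of 3 UMIs, so the value reflects only the summed UMIs of the classes. That of Cyp26b1 in spermatogonia-like cells was -4.20 with 20% taken off, since its KO level (21.9 CPM, 128 CPM over the library) fell to the floor by design. With 20% taken off, both genes thus passed the 2-fold limit only through the floor, and neither was higher in KO. The cause was not tested in any of these cases. The 4 WT genes highest in germ classes stayed 4 in number, the KO genes highest in Sertoli-like cells numbered 2 or 3, and those apart over all barcodes 7 to 9. Of 260 log2 ratios under alternatives, 230 lay within the counting interval and 25 outside, and 5 changed sign from a main value at least 2-fold apart. A smaller ratio that changed sign, such as that of Aldh1a1 in Sertoli-like cells, was sorted by its interval only. Of 167 levels, 146 lay within. Thinning to 2000 UMIs moved 12 of 17 shares. The minimum of 1000 UMIs, the removal of the KO spermatogonium richest in Cyp26b1, the removal of 3 Sertoli-like sub-clusters and the use of clusters in place of sub-clusters were chosen after seeing the data. Early prophase-like cells gave no value with classes from clusters, since no WT cluster was named so. No paired analysis was possible because each genotype has 1 library and no test was made, and for the same reason no replicate could be left out. Depth limits Crabp2, Cyp26a1 and every WT value resting on a few UMIs.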
